A study of Bos taurus with 25 samples.

Results

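Vitamin B12 (cobalamin) was compared with no vitamin B12 in the mammary gland of lactating Holstein cows that had calved more than once, over all genes on the array. Mammary biopsies came from 13 of the 25 arrays of the series, each array holding the RNA of a single cow. The 7 arrays with B12 were 4 of cows that received B12 alone (cows 36, 37, 40 and 52) and 3 of cows that received B9 and B12 together, the B9_B12 group (cows 31, 32 and 38). The 6 arrays without B12 were 3 of control cows injected with saline, the Ctl group (cows 42, 43 and 51), and 3 of cows that received B9 alone (cows 39, 41 and 57). All cows received a weekly intramuscular injection of 5 mL, which held 10 mg of B12, 320 mg of B9 (folic acid), both or neither, and the gland was sampled 64 ± 3 days after calving. The 4 groups form a 2 by 2 design, so that the B12 effect was estimated over all 13 arrays with B9 as a covariate. The question was whether B12 injections changed transcript levels in the milk-producing tissue.

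Cobalamin serves mammalian cells as the cofactor of a pair of enzymes. Methionine synthase (MTR) uses it to pass the methyl group of a folate to homocysteine, and methylmalonyl-CoA mutase (MMUT) uses it on the route by which propionate, the main glucose precursor of ruminants, enters the citric acid cycle. In the blood the vitamin travels on transcobalamin (TCN2), which cells take up through the receptor CD320, and chaperones such as MMACHC, MMADHC and MMAA deliver it to the enzymes. Mammary epithelium also passes cobalamin into milk, and draws on glucose, acetate and long-chain fatty acids for lactose and milk fat.

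The tissue carried the markers of a lactating gland on every array. The genes for alpha-S1-casein (CSN1S1), beta-lactoglobulin (PAEP), kappa-casein (CSN3) and alpha-lactalbumin (LALBA) lay at log2 intensities of 18.4 to 18.8 on all 13 arrays, and 6 of the 11 milk protein genes found were among the 25 brightest of 43653 probes. Epithelial, myoepithelial, endothelial, fat and immune cells share a biopsy, and a change in their proportions cannot be told apart from a change of transcript level within a cell. The median correlation of an array with the others was 0.986 to 0.991, and no array stood apart by it. The first principal component held 25.6% of the variance, and 87.1% of its own variance lay between slides against 0.0936% between arrays with and without B12. The 5 slides each held mammary arrays of both kinds. Cows 36 (B12) and 41 (B9), 37 (B12) and 57 (B9), and 31 (B9_B12) and 42 (Ctl) were the only mammary pairs on their slides. Those pairs also differ in B9, so that counts of slides by direction do not separate B12 from B9.

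No gene passed the threshold of an adjusted p of at most 0.05 with a change of at least 2-fold (limma, 0% of 27841 genes), and the smallest adjusted p of any of the 43653 probes was 1. Without adjustment, 701 probes had a p under 0.05, which is 1.61% of all probes, 382 of them higher and 319 lower with B12. The nominal share at that level is 5%, above the share seen. Taking the brightest probe of each gene, 443 genes had an unadjusted p under 0.05 (1.59%), 254 higher (0.912%) and 189 lower (0.679%). Cyber-T, a regularised test of 7 against 6 arrays, also left 0 genes past the threshold, at a smallest adjusted p of 0.524, and 800 probes had an unadjusted p under 0.05. The main effect of B9 in the same fit gave 0 genes past the threshold and 1624 probes at an unadjusted p under 0.05 (3.72%). Differences were small as well as unsupported: of the 19865 genes well above background on at least 6 arrays, 98.5% had a 95% interval that lay within 2-fold in both directions and 92.2% within 1.5-fold.

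No gene that carries or uses cobalamin passed the threshold for the B12 main effect. Of 20 such genes found by name, 0 were higher and 1 was lower at an unadjusted p under 0.05, against 0.912% and 0.679% of all genes. Their median difference was 0.01 on the log2 scale, and 19 of the 20 intervals lay within 1.5-fold. MTR lay between 6.53 and 6.86 with B12 (median 6.68) and between 6.55 and 6.78 without (median 6.65). The ranges overlapped almost wholly, and the difference was 0.02 ± 0.05 (SE; 95% interval −0.10 to 0.13; exact permutation p = 0.744). MMUT lay between 9.19 and 9.39 with B12 (median 9.32) and between 9.15 and 9.58 without (median 9.37). Its range with B12 lay wholly inside the range without, with a difference of −0.06 ± 0.07 (exact permutation p = 0.397).

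The largest difference on the uptake route was that of TCN2, at 0.28 ± 0.20, with arrays from 11.5 to 12.6 with B12 and from 11.5 to 12.2 without, so that the arms overlapped (exact permutation p = 0.200). The receptor gene CD320 differed by 0.08 ± 0.18. The chaperone genes MMACHC and MMADHC differed by 0.03 ± 0.10 and 0.01 ± 0.07, and the methionine synthase reductase MTRR by 0.03 ± 0.07. AMN, which anchors the receptor that takes up cobalamin in gut and kidney, was the 1 gene with an unadjusted p under 0.05 (limma, 0.0490, adjusted p = 1), by −0.08 ± 0.04 at a dim level of 6.1 to 6.4, and kept that p in 5 of the 13 fits that left out an array. Another probe for AMN gave 0.01. MMAA, which loads cobalamin onto the mutase, had a main difference of 0.06 ± 0.14 that joined opposite values: −0.33 ± 0.11 between B12 and Ctl cows and 0.50 ± 0.12 between B9_B12 and B9 cows.

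**Figure D1:**
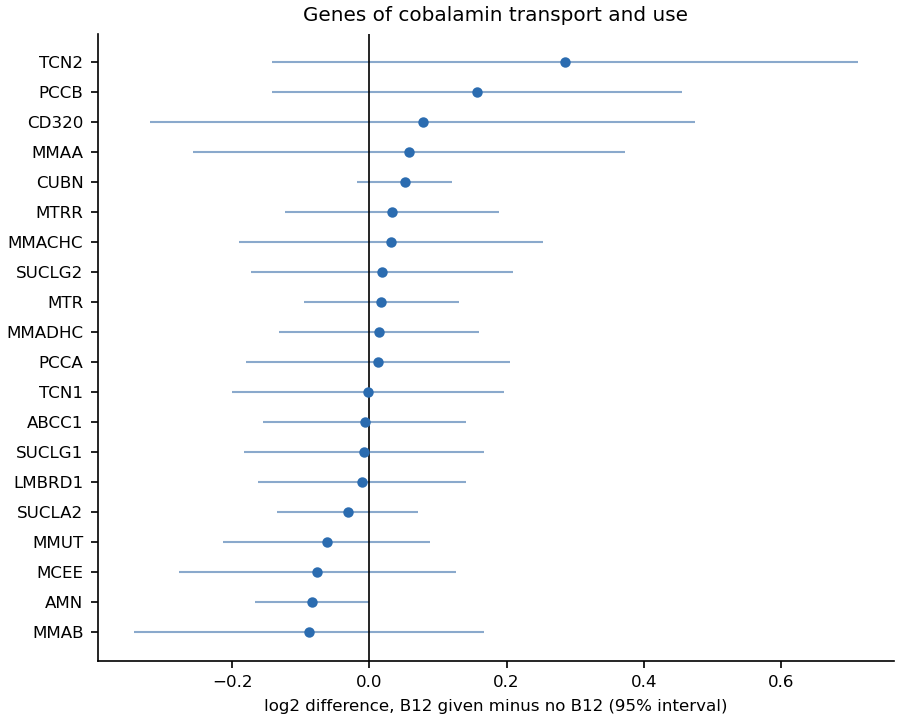
Log2 difference between the 7 mammary arrays with B12 and the 6 without, with B9 as a covariate, for the 20 genes of cobalamin transport and use found on the array; points are limma estimates, bars are 95% intervals and the vertical line marks 0. Estimates run from −0.09 (MMAB) to 0.28 (TCN2), and AMN is the gene whose interval ends below 0.

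In the surrounding pathways the counts at an unadjusted p under 0.05 were near the 1.59% of all genes, at which lists of this size hold few or no such members. In the folate cycle, 0 of 20 genes had an unadjusted p under 0.05 and the median difference was 0.00. In the methionine cycle, 0 of 17 genes had an unadjusted p under 0.05, with AMD1, which makes the aminopropyl donor of the polyamines, at 0.17 ± 0.10. Among 25 genes of propionate entry and the citric acid cycle the count was again 0, with a median of 0.01 and with all 25 intervals within 1.5-fold. The same held for 37 respiratory chain genes (median 0.01, 37 of 37 intervals within 1.5-fold). Of 46 ribosomal protein genes, whose products build the ribosome, all intervals lay within 1.5-fold, and 1 had an unadjusted p under 0.05, RPS27 at −0.12 ± 0.04.

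The milk protein genes differed by little, and the sign depended on the scaling. CSN1S1 lay between 18.65 and 18.74 with B12 and between 18.65 and 18.78 without, with a difference of −0.03 ± 0.03, and LALBA, the lactose synthase subunit, differed by −0.02 ± 0.02. The median of the 11 milk protein genes was −0.03 after quantile normalization, with 10 of them below 0, and 0.14 after scaling by the 75th percentile, with 3 below 0. Quantile normalization fixes the brightest values, and after scaling by the 75th percentile CSN1S1 differed by 0.14 ± 0.11. No milk protein probe was saturated. LTF, the iron-binding lactoferrin, had the widest interval of the group, from −1.81 to 0.57 about −0.62. A single array at 13.9 (cow 32, B9_B12) lay below all the others, which ranged upward from 15.8, and without it the difference was −0.13.

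Milk fat, lactose and related lists gave single members with an unadjusted p under 0.05, to be read against 1.59% of all genes. These were 1 of 14 milk fat globule, 1 of 15 lactose and glucose, 1 of 21 cholesterol synthesis and 1 of 16 lactation signalling genes. Each was picked as the lowest p of its list, so that its p describes and does not test it. GPD1, which makes the glycerol 3-phosphate backbone of triglycerides, lay between 13.3 and 13.7 with B12 (median 13.4) and between 13.5 and 13.9 without (median 13.7). The arms overlapped, 4 of 5 slides had the lower mean with B12, and the difference was −0.23 ± 0.08 (exact permutation p = 0.0300), with other probes at −0.21 and −0.19. PGD, an NADPH-making enzyme of the pentose phosphate pathway, differed by 0.29 ± 0.10 (exact permutation p = 0.0271) and was higher on 5 of 5 slides. Its 4 arrays with B12 alone lay at 12.93 to 13.04, above all 6 arrays without B12 (12.4 to 12.6), and of the B9_B12 cows, cow 31 lay at the same level and cows 32 and 38 lay at 12.4 and 12.5. MVK, which phosphorylates mevalonate on the way to cholesterol, differed by 0.34 ± 0.12 (exact permutation p = 0.0271) on its brightest probe and by 0.04 on another. The secretory genes XDH (−0.13 ± 0.14) and BTN1A1 (−0.12 ± 0.08), which coat the fat globule, and the lipogenic genes ACACA (0.05 ± 0.17) and SCD (−0.04 ± 0.08) had intervals that included 0. So did the lactation regulators PRLR (0.00 ± 0.13), STAT5A (0.05 ± 0.13) and ELF5 (−0.05 ± 0.10). IGFBP5, a binding protein of insulin-like growth factors that is known from mammary involution, lay between 8.81 and 9.75 with B12 (median 9.23) and between 8.59 and 9.44 without (median 8.86). The difference was 0.45 ± 0.17 (exact permutation p = 0.0400), with overlapping arms, and the unadjusted p was under 0.05 in 12 of the 13 fits that left out an array.

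**Figure D2:**
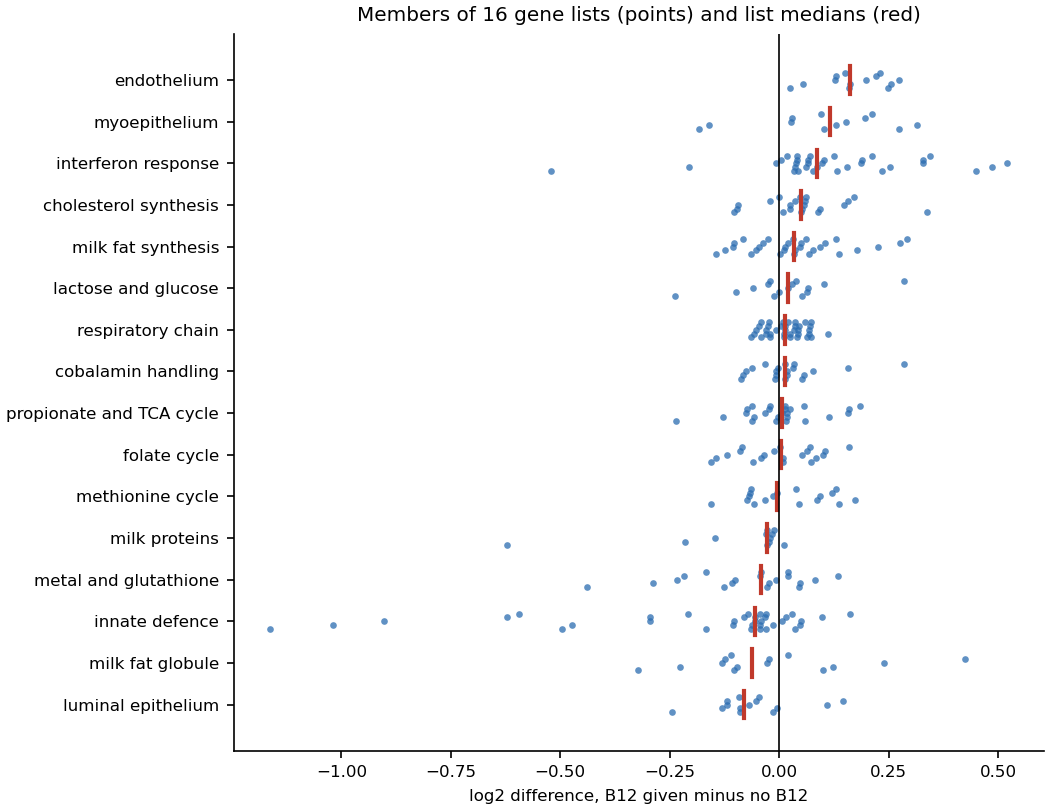
Log2 difference (B12 given minus no B12) of every member found in 16 gene lists, by the brightest probe of each gene, with the list median as a red bar. The endothelial markers all lie above 0 (median 0.16), most interferon genes lie above 0 (median 0.09), and the innate defence genes reach furthest to the left (SAA2 at −1.16); the median over all 27841 genes was 0.00, and the sign of the milk protein median (−0.03) turned with scaling by the 75th percentile.

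Several gene lists had most members on one side of 0. Above it lay the endothelial and myoepithelial markers, the interferon genes and 16 of 21 cholesterol synthesis genes (median 0.05). The side of the cholesterol genes turned with the settings, with 4 to 19 above 0 under 31 alternatives and medians from −0.05 to 0.13. Below 0 lay the luminal epithelial markers, the innate defence genes and the milk protein genes given before. The sign of the milk protein genes turned with scaling by the 75th percentile. For comparison, 14138 of all 27841 genes lay above 0, with a median of 0.00. Genes of a list vary together across cows, so that the counts are not of independent members. All 13 endothelial markers found lay above 0 (median 0.16, from 0.03 for FLT1 to 0.27 for ESAM), and 11 to 13 did so under 31 alternatives. The mean level of these markers ranged from 8.997 to 9.60 with B12 and from 8.90 to 9.43 without. The ranges overlapped over most of their width, and 1 gene had an unadjusted p under 0.05. This was CDH5, the adhesion protein of endothelial junctions, at 0.25 ± 0.09 (exact permutation p = 0.0286). It was picked as the lowest p of its list, so that this p describes and does not test it. CDH5 was higher on 5 of 5 slides, while its other probes gave 0.00 and 0.10. All 13 markers were well above background on at least 6 arrays. Markers of myoepithelium, the contractile layer of the gland, also lay mostly above 0, 10 of 12 with a median of 0.12, and 7 to 11 did so under the alternatives. Their mean level ranged from 10.8 to 11.5 with and without B12, and 0 had an unadjusted p under 0.05. The lowest p were those of TAGLN (0.31 ± 0.19) and ACTA2 (0.27 ± 0.25), which serve contraction. Luminal epithelial markers had a median of −0.08, with 2 of 14 above 0 and 0 at an unadjusted p under 0.05, and the count rose to 7 of 14 without the array of cow 57 (B9). The part of cell proportions in these values was not tested.

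Of 33 interferon-response genes, 30 lay above 0 with a median of 0.09, and 24 to 31 did so under the alternatives. The 1 member with an unadjusted p under 0.05 had the opposite sign and, as the lowest p of its list, is described by that p and not tested. This was GBP5, a guanylate-binding protein, at −0.52 ± 0.23 (exact permutation p = 0.0643). Its unadjusted p was under 0.05 in 3 of the 13 fits that left out an array. GBP5 was well above background on 2 of the 7 arrays with B12 and on 5 of the 6 without. ISG15, a ubiquitin-like modifier, had the largest difference at 0.52 ± 0.32, followed by the antiviral genes MX1 (0.49 ± 0.28) and OAS1Y (0.45 ± 0.31). The list median was 0.17 between B12 and Ctl cows and 0.02 between B9_B12 and B9 cows. The mean level of the list was 8.43, 8.46, 8.02 and 8.55 in the B12 cows 36, 37, 40 and 52, and lay between 7.87 and 8.15 in the other 9 cows. Thus 3 of the 4 cows with B12 alone lay above all others, and the B9_B12 cows did not.

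Innate defence genes, known from mastitis, pointed the other way. Of 35 found, 27 lay below 0 with a median of −0.06, and 0 were higher and 2 lower at an unadjusted p under 0.05, against 0.912% and 0.679% of all genes. These were SAA2 and SAA3, the serum amyloid A proteins of the acute phase. Both were picked as the lowest p of this list, so that their p describe and do not test them. SAA2 lay between 9.02 and 11.6 with B12 (median 9.95) and between 10.6 and 12.1 without (median 11.5). The arms overlapped, since cow 52 (B12) lay at 11.6 and cows 31 and 38 (B9_B12) at 11.2 and 10.66, within the range without B12, which began at 10.64. The mean with B12 was lower on 5 of 5 slides, and the difference was −1.16 ± 0.43, a level 0.447 times that without B12 (95% interval 0.235 to 0.851; exact permutation p = 0.0329; limma, adjusted p = 1). A second, dimmer SAA2 probe gave −0.58. SAA3 lay between 10.2 and 12.6 with B12 (median 10.9) and between 11.6 and 12.98 without (median 12.3). Its difference was −1.02 ± 0.42 (exact permutation p = 0.0557; unadjusted p under 0.05 in 5 of the 13 fits that left out an array), and its other 3 probes gave −1.17 to −1.12. The genes are close paralogs, whose probes may bind the RNA of each other. The difference had the same sign between B12 and Ctl cows (SAA2, −1.42) and between B9_B12 and B9 cows (−0.87).

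Other members of that list with large negative values had wide intervals: CHI3L1, a chitinase-like protein of macrophages and epithelium, at −0.90 ± 0.66, the neutrophil attractant GRO1 at −0.59 ± 0.32, and the complement factor gene CFB at −0.50 ± 0.33. The inflammatory cytokine gene TNF (−0.03 ± 0.13) and the neutrophil gene S100A8 (0.01 ± 0.31) lay near 0. Macrophage markers had a median of 0.02 and T cell markers of −0.01, with 0 of 16 and 1 of 18 members at an unadjusted p under 0.05, the latter being CD8B at −0.09 ± 0.04, with such a p in 4 of the 13 fits that left out an array.

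In the remaining lists, members with an unadjusted p under 0.05 are to be read against 1.59% of all genes. The members named were picked for the lowest p of their list, so that each p is a description. Among 19 genes of metal binding and glutathione, 0 were higher and 1 was lower. This was NQO1, a quinone reductase, which lay between 7.79 and 8.27 with B12 and between 8.14 and 8.62 without, so that the arms overlapped, with a difference of −0.23 ± 0.09 (exact permutation p = 0.0329; limma, adjusted p = 1, and an unadjusted p under 0.05 in 9 of the 13 fits that left out an array). The metallothionein gene MT2A differed by −0.22 ± 0.13. Among 30 genes of milk fat synthesis the count was 0, with PPARG, a transcription factor of lipid synthesis, at 0.29 ± 0.15 and IDH1, a cytosolic source of NADPH, at 0.28 ± 0.15. It was also 0 for cell cycle genes (22 found), DNA and histone methylation (8), amino acid transport (16), amino acid stress (19), heat shock proteins (18) and immediate early genes (18), with medians from −0.01 to 0.03. Among markers of other cells, 5 of 11 adipocyte, 3 of 8 B and plasma cell, 14 of 22 fibroblast and matrix and 9 of 18 skeletal muscle genes lay above 0, and 0 of these had an unadjusted p under 0.05. Of 9 red cell genes 7 lay above 0, and 1 had an unadjusted p under 0.05, CA1 at 0.08 ± 0.03, which was well above background on 0 arrays.

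Only 15 probes, 0.0344% of all, joined an unadjusted p under 0.05 to a change of at least 2-fold, 7 higher and 8 lower, for 10 names, and in 0 of them were the arms fully apart. These probes were singled out by their values, which are given with no test. SAA2 and SAA3 gave 5 of the 8 lower ones. RAB15, a small GTPase of endosomal recycling, lay between 10.2 and 11.6 with B12 (median 11.4) and between 8.32 and 11.7 without (median 9.82). The 4 cows with B12 alone lay close together at 11.2 to 11.6, above the 3 Ctl cows (8.3 to 10.4), but cow 39 (B9) reached 11.7. The difference was 1.39 ± 0.47, a 2.62-fold higher level (95% interval 1.29 to 5.34), and the separate differences were 1.98 between B12 and Ctl cows and 0.72 between B9_B12 and B9 cows. A second RAB15 probe gave 1.39, and the other probes gave 0.19 and 0.13. BCL2L15, a relative of the apoptosis regulator BCL2, lay between 11.2 and 13.8 with B12 (median 12.8) and between 9.38 and 12.8 without (median 10.5). It was higher on 5 of 5 slides by 1.82 ± 0.61, with cows 51 and 57 at the level of the cows with B12.

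The widest difference on the array belonged to a transcript that the array names ENSBTAT00000046006. It lay between 8.77 and 15.2 with B12 (median 13.4) and between 6.19 and 10.8 without (median 9.38). Of the cows with B12, cows 36, 40, 52, 32 and 38 lay above all cows without it, and cows 37 and 31 did not. The difference was 3.51 ± 1.10, and another probe gave 3.37. ENSBTAT00000004012 had the opposite sign at −1.88 ± 0.53. All 7 cows with B12 lay at 8.46 to 9.24. Of the cows without B12, cows 42, 43, 39 and 57 lay at 11.5 to 12.0, and cows 51 and 41 at 9.30 and 8.72, so that the 6 cows without B12 fell into 2 separate levels. A fixed difference between these cows cannot be told apart from B12 for this transcript. BT021658 lay at 6.17 to 6.24 in all cows without B12 and at 6.14 to 9.87 with B12 (median 8.07), with a difference of 1.496 ± 0.59.

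**Figure D3:**
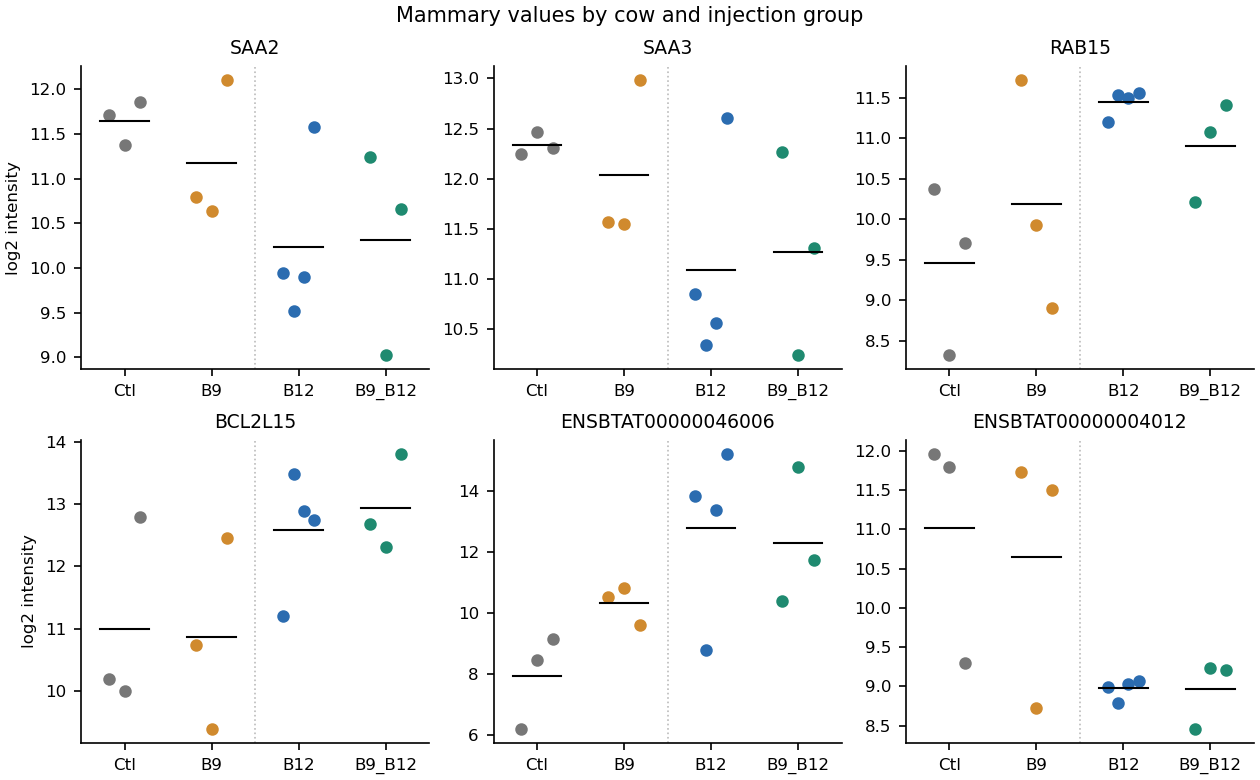
Log2 intensity of 6 genes on the 13 mammary arrays, 1 point per cow, by injection group; horizontal bars are group means and the dotted line separates groups without B12 (left) from groups with B12 (right). SAA2 and SAA3 lie lower on average with B12, with cows 52 (B12) and 31 (B9_B12) inside the range without B12, RAB15, BCL2L15 and ENSBTAT00000046006 lie higher on average, and ENSBTAT00000004012 has 4 of the 6 cows without B12 at a separate level of 11.5 to 12.0.

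Genes whose arms did not overlap were few and their differences small. The 7 arrays with B12 lay wholly above the 6 others for 5 genes and wholly below for 6, which is 0.0395% of all genes (0.0458% of all probes, 20 in number, had arms apart). Their differences ranged from 0.05 to 0.47 in size on the log2 scale, and 7 of the 11 probes were well above background on fewer than 6 arrays. One with a current symbol was well above background on at least 6 arrays: ADAMTS3, a procollagen protease, lay between 6.14 and 6.27 with B12 and between 5.97 and 6.11 without. Its difference was 0.17 ± 0.03, given with no test because the gene was chosen for its separated arms, and its other probes gave 0.01.

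The B12 difference was also taken separately in cows without B9 (B12 minus Ctl) and with B9 (B9_B12 minus B9), which share no array. Neither comparison had a gene past the threshold (limma), with 997 (2.28%) and 1016 (2.33%) probes at an unadjusted p under 0.05, and the test of their difference, the interaction, had 0 genes past the threshold and 1381 probes (3.16%) at that level. Across the 43653 probes, which are not independent, the 2 differences correlated with r = −0.15, and 43.7% of probes had the same sign in both. It was −0.061 with Agilent's processed signal and −0.078 without cow 38 (B9_B12). Of the 5 slides with mammary arrays, 2 held those of a B12 and a B9 cow and 1 those of a Ctl and a B9_B12 cow. These slides enter the 2 differences with opposite signs, so that the opposite values cannot be fully told apart from slide. Of the 997 probes without B9, 374 (37.5%) kept their sign with B9, and of the 1016 probes with B9, 343 (33.8%) had that sign without it. At an unadjusted p under 0.05 in both, 13 probes had the same sign and 54 the opposite.

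Several genes that the study had chosen from these arrays for a change against the control cows showed such opposite values, which describe and do not test them. POSTN, a matrix protein of stromal cells, differed by 0.83 ± 0.25 between B12 and Ctl cows and by −0.74 ± 0.27 between B9_B12 and B9 cows, with the Ctl cows at 7.001 to 7.29 and the B9 cows at 8.19 to 8.54. CIDEA, a lipid droplet protein of milk fat secretion, differed by −0.69 ± 0.43 and 1.69 ± 0.46 on its brightest probe and by −0.79 and 1.504 on another, whereas 2 more CIDEA probes had the reverse signs, at 1.07 and −1.55 and at 1.08 and −1.54. The direction for CIDEA thus depended on the probe. FUT6, a fucosyltransferase that the study calls FUT5 (a synonym in RefSeq), differed by 2.11 ± 0.95 and −1.13 ± 1.01. The transcription factor gene IRX6 differed by 1.41 ± 0.44 and −0.34 ± 0.47, and the adhesion receptor gene ADGRF1 by 1.22 ± 0.29 and −0.34 ± 0.31. IDO1, an interferon-induced enzyme of tryptophan breakdown, differed by 1.04 and −0.49, with cows 36 and 52 (B12) at 9.26 and 10.5 and all others at or below 7.84. SECTM1 (−0.32 ± 0.25) and VAV1 (−0.12 ± 0.50) had main differences with 95% intervals that included 0. Of the 10 genes of this kind found by name, RAB15 and SAA2 had a main effect of B12 with an unadjusted p under 0.05, beside 1.59% of all genes. Since the genes were chosen from these arrays, this count is no test.

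**Figure D4:**
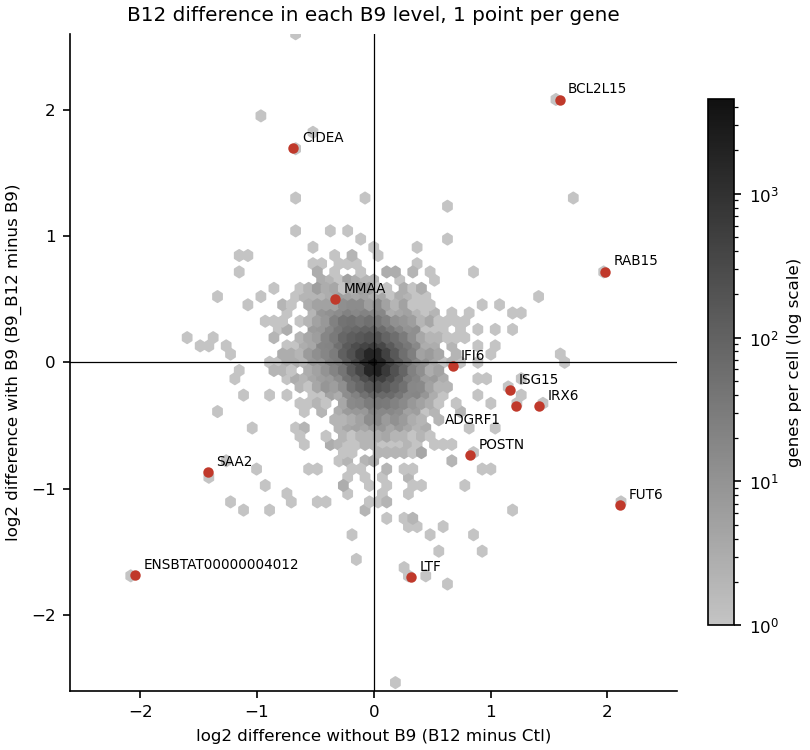
B12 difference (log2) in cows without B9 on the horizontal axis and in cows with B9 on the vertical axis, for the brightest probe of 27839 genes (2 lie outside the axes), shaded by number of genes on a log scale, with 13 genes marked in red. The cloud leans from upper left to lower right, and BCL2L15, RAB15, SAA2 and ENSBTAT00000004012 are among the marked genes with the same sign in both.

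The interaction had its lowest unadjusted p at MMAA (0.83 ± 0.17) and TMEM107, a protein of the cilium base (−0.33 without B9 and 0.30 with B9), on one side. On the other side were GCLM, a subunit of glutathione synthesis (0.13 and −0.42), and CDIPT, the phosphatidylinositol synthase (0.05 and −0.37). All had an adjusted p of 1.00 (limma), and the smallest of any probe fell to 0.0399 without cow 57 (B9), at a change under 2-fold.

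The liver of 12 of the cows gave a comparison for the same injections. The B12 main effect in the liver had 0 genes past the threshold (limma) and 1034 probes (2.37%) at an unadjusted p under 0.05, and the difference of the B12 effect between the tissues had 0 genes and 628 probes (1.44%). Interferon-stimulated genes were set side by side, with quantiles taken over both tissues. IFI6, a mitochondrial antiviral protein, lay between 11.04 and 12.3 in the mammary gland of the 4 cows with B12 alone. In the other 9 it lay between 10.0 and 11.01, so that the ranges nearly touched without overlap. In the liver it lay between 15.4 and 16.8 in the same 4 cows and between 11.8 and 12.7 in the other 8, again without overlap. IFI27 lay between 12.3 and 12.97 against 11.3 to 12.2 in the mammary gland, and between 15.8 and 16.8 against 11.9 to 14.2 in the liver. ISG15 overlapped in both tissues. IFI6, IFI27 and ISG15 were listed because they were known from the liver of the same cows. The share of all genes that separates the 4 cows with B12 alone in this way was not taken. Over any B12 the mammary differences were 0.34 ± 0.22 for IFI6 and 0.33 ± 0.15 for IFI27, against 2.33 ± 0.56 and 1.76 ± 0.57 in the liver. The B9_B12 cows lay within or below the range of the cows without B12 for IFI6 and IFI27 in the mammary gland. No test of the tissue difference is given for these genes, which were picked for their liver values.

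**Figure D5:**
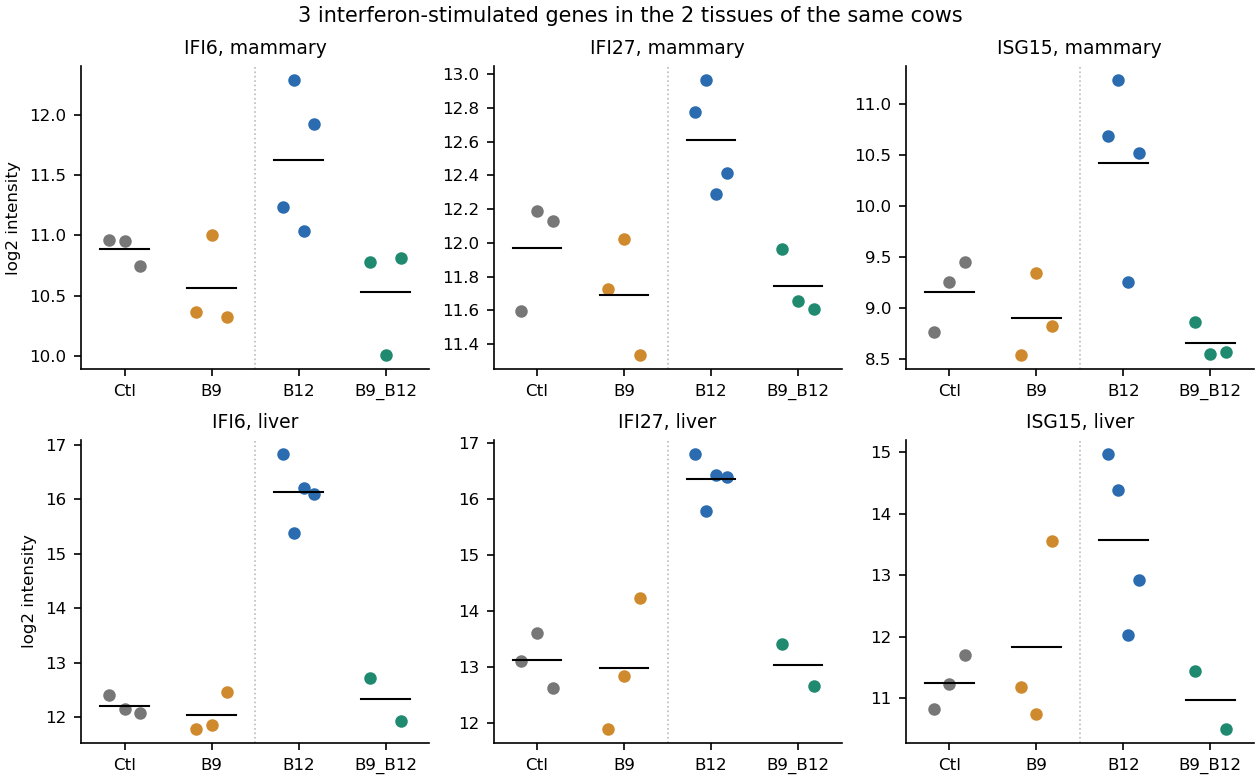
Log2 intensity of IFI6, IFI27 and ISG15 in the mammary gland (upper row, 13 cows) and the liver (lower row, 12 cows), with quantiles over both tissues, by injection group; points are cows, horizontal bars are group means and the vertical scales differ. The 4 cows with B12 alone lie above all others for IFI6 and IFI27 in both tissues. In the mammary gland the ranges nearly touch, at 11.04 against 11.01 for IFI6 and at 12.29 against 12.19 for IFI27. In the liver they lie further apart.

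ENSBTAT00000004012 separated the same cows in both tissues. Cows 39, 42, 43 and 57 lay at 12.4 to 12.9 in the mammary gland and at 9.26 to 10.3 in the liver, and the other cows at 9.04 to 9.96 and at 7.30 to 8.19. RAB15 (6.31 to 7.13), BCL2L15 (6.81 to 7.90) and ENSBTAT00000046006 (5.96 to 6.17) were dim in all 12 livers, and the difference of 0.09 ± 0.15 for RAB15 there lay within its error. SAA2 differed by −0.52 ± 0.26 in the liver (limma, unadjusted p = 0.0652), where its level was 15.6 to 17.7. The lowest unadjusted p of the tissue difference belonged to PRSS35, THEM4, APOBEC2 and LOC613358, with liver differences from −2.55 to 0.40 and mammary differences from −0.12 to 0.07.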

How the data were processed

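Each of the 13 mammary arrays, of 25 in all, held 1 cow. The authors deposited 1-colour Agilent scanner output, in which each spot has an unnormalized intensity, plus processed log2 values (background-corrected and normalized). The file headers name Feature Extraction 10.7.3.1 and the submitters' notes name 9.1. Here the median intensity was corrected by normexp (offset 50), put on the log2 scale and normalized by quantiles within the tissue. Outlier spots (48 values) were left out. Quantiles can hide shifts of the brightest genes, and the offset shrinks differences of dim ones. The median signal over background was 2.92 to 5.06, and the number of arrays limits precision.

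Software was R 4.3.3 and limma 3.58.1. The B12 effect was tested by limma with B9 as covariate and Benjamini-Hochberg adjustment over 43653 probes. Errors after ± are SE, and intervals are 95%. Each gene has its brightest probe. Single genes had exact two-sided permutation tests within each B9 level (700 arrangements, smallest p 0.00143). Of 27886 names on the array, 11113 were paired with a current symbol, and no positions are given. The tests were checked on simulated data with independent noise, no slides and large planted changes, so that this check does not bear on small changes. Figures were drawn in Python 3.11.15 with matplotlib 3.10.9 and pandas 2.3.3.

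Genes were named from those with both arms apart, the 2 lowest p of each of 32 lists, cobalamin genes, genes the study names for this tissue, and the lowest p of the interaction and of the tissue difference; milk genes and those of the largest changes were added after their values were seen. Not every gene so selected is reported here. A p of a gene picked as the lowest of its list is a description. Members and lists were chosen with earlier results of these data known. The liver shares 12 cows; same-numbered samples are 1 cow, and the cow was tried as a replicate block.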

Additional observations from a re-analysis of the deposited data

Results flagged for a closer look

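In each gene named, the highest or lowest array of the 7 with B12 and of the 6 without was set against the others of its arm by Dixon's ratio. Over 116 genes and 2 arms, 16 of 232 arms had such an array, and chance flags about 1 in 20. Of these, 4 belonged to cow 36 (B12): hemoglobin beta (HBB) at 12.2 on the log2 scale, against at most 7.15 on the other arrays with B12, SLC38A7 at 9.03, TCN1 at 6.53 and XDH at 16.2, the last being low. PLIN2, a coat protein of lipid droplets, stood at 16.04 in cow 52 (B12) and at most at 13.6 in the others with B12. In cow 37 (B12) CSN3 was low at 18.4, after quantile normalization that fixes the brightest values.

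Cow 31 (B9_B12) was low for RAB15 at 10.2 and for STAT5A at 7.44, cow 32 (B9_B12) was low for KLF4 at 7.42 and GLYCAM1 at 18.1, and cow 38 (B9_B12) was high for CA1 at 6.08, where this red cell gene was not well above background. Without B12, cow 39 (B9) was low for KLF4 at 7.29 and PPARG at 8.70, cow 57 (B9) was low for IDO1 at 6.53, cow 43 (Ctl) was high for PRMT5 at 11.0 and cow 42 (Ctl) for CCNB1 at 6.13. The part of blood, cell proportions or a single spot in these values was not tested.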

How the results depend on the processing

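No gene passed the threshold for the B12 main effect under any of 31 alternatives: 18 other settings and 13 single arrays left out. The lowest smallest adjusted p was 0.524, by Cyber-T. The 701 probes at an unadjusted p under 0.05 became 240 with scaling by the 75th percentile (134 higher, 106 lower) and 401 with dim probes left out, rose to 1018 and 993 with the slide as a random and a fixed block and to 1012 without an offset, and ranged from 607 to 956 with arrays left out. Agilent's processed signal, put on its 75th percentile, moved the split from 382 higher and 319 lower to 689 and 213. The correlation of the B12 difference without and with B9 (−0.15) stayed negative. It was −0.061 with the image software's processed signal, −0.27 with scaling by the 75th percentile, −0.50 with the slide as a fixed block (where shared slide terms tie the errors of both differences, so that 0 is not the value without change), −0.20 without cows 37 and 57 (the slide farthest along the first principal component, an alternative chosen after seeing the data, as was a variance trend), and −0.177 to −0.078 with arrays left out. The cause was not tested.

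The interaction had 1 gene past the threshold, RPS6KA1, without cows 37 and 57, and 0 to 0 with single arrays left out, though the smallest adjusted p was then 0.0399 without cow 57 (B9) and 0.0708 without cow 43 (Ctl), at changes under 2-fold where it passed 0.05. B12 minus Ctl had 0 to 1 genes with arrays left out, the 1 being XM_873176 without cow 43 (Ctl). For the tissue difference, the cow as a replicate block (paired tissues) gave 0 genes and 597 probes at an unadjusted p under 0.05 against 628, so that the replicate block changed no call. Leaving arrays out gave 568 to 1228, the highest without the liver arrays of cow 38 (1228) and cow 57 (1051), and the smallest adjusted p was 5.89e-06 without that of cow 39 (B9), at a change under 2-fold. Of the 32 gene lists, 20 had a median above 0, and 15 to 22 under the alternatives. The 18 genes with an unadjusted p under 0.05 that were taken through the alternatives kept their sign in each that gave them a value; BT021658 was not among them. SAA2 kept a p under 0.05 in 30 of 31, RAB15 in 30, CDH5 in 30, SAA3 in 21, GBP5 in 19, CD8B in 16 and AMN in 13. For SAA3, GBP5, CD8B, AMN, NQO1, CA1 and IGFBP5 the array of a single cow was enough to lift the p above 0.05. With 13 arrays, the typical interval reached 0.19 either way on the log2 scale, and dim genes had differences shrunk by the offset.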
